A study of Mus musculus with 8 samples.

Results

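The transcripts of 8 membrane adenylyl cyclases, Adcy1, Adcy2, Adcy3, Adcy5, Adcy6, Adcy7, Adcy8 and Adcy9, were examined in mouse cortex by bulk RNA-seq. The genes were chosen by name as cAMP-producing enzymes downstream of the β1-adrenergic receptor, and all 8 were found among the 54532 genes counted. Cortex was taken from 4 PS19 mice and 4 Adrb1+/m;PS19 mice on a C57BL/6 background, all 8 mo old, with 1 library per mouse. Both groups carried the PS19 transgene, which expresses human 1N4R tau carrying P301S under the prion promoter of the mouse. The Adrb1+/m;PS19 mice were in addition heterozygous for Adrb1-A187V, a knock-in mutation of the β1-adrenergic receptor known from natural short sleepers. No mouse without the tau transgene was measured, so the comparison asks what the receptor mutation did on a tauopathy background.

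The libraries held between 14653222 and 21223754 counts. Each member had between 108 and 26633 counts in a mouse and passed the filter on low counts that left 17195 genes for testing. CPM is a gene's count relative to the library size, scaled with edgeR's TMM factors. The level of the mutated gene, Adrb1, was 36.8 ± 4.19 CPM in the PS19 and 35.0 ± 3.71 CPM in the Adrb1+/m;PS19 mice (SD, n = 4 each), and its log2 fold change was -0.07 ± 0.09 (SE). A knock-in of a single codon is not expected to show in counts per gene, so this value does not check the genotypes.

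Adenylyl cyclases convert ATP to cAMP when a receptor coupled to a stimulatory G protein, such as the β1-adrenergic receptor, is activated. cAMP then acts through protein kinase A, exchange factors for Rap and cyclic nucleotide-gated channels, and phosphodiesterases remove it. The isoforms differ in what else controls them. Adcy1, Adcy3 and Adcy8 are stimulated by calcium and calmodulin, Adcy2 and Adcy7 are stimulated by G protein βγ subunits, Adcy5 and Adcy6 are inhibited by calcium and by inhibitory G proteins, and Adcy9 responds poorly to forskolin. Adcy1 and Adcy8 are known from synaptic plasticity, Adcy3 from olfactory and primary cilia, Adcy5 from the striatum, and Adcy7 from immune cells.

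The sequence upstream of the start site is shown for the 3 members with the highest transcript level per length, which held 84.1% of the summed level of the 8 genes. The windows are the 250 bases before the RefSeq start site on GRCm38.p6, written 5′ to 3′ on the strand of the gene, with GC boxes in capitals. RefSeq promoters were found for 6 of the 8 members, all but Adcy6 and Adcy8. Where RefSeq gives several start sites, the one nearest the start of the gene in the deposited table was used.
Adcy1, chr11:7063183-7063432, plus strand: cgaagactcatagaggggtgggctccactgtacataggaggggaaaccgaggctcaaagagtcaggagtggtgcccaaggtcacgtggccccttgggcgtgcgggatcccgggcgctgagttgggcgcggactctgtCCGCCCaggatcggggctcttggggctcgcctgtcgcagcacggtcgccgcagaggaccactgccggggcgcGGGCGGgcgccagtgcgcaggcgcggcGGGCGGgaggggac
Adcy5, chr16:35154614-35154863, plus strand: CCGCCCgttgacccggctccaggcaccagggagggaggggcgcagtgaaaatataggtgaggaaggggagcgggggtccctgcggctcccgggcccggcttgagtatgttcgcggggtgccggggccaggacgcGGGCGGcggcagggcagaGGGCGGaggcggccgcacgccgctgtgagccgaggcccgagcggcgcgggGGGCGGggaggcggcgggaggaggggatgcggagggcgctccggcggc
Adcy2, chr13:68999542-68999791, minus strand: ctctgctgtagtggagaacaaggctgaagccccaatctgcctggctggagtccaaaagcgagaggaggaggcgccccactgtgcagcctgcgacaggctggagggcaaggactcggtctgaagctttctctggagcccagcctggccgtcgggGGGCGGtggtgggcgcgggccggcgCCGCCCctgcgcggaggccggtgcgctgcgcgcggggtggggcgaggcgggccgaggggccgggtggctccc

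GC boxes, searched as GGGCGG or CCGCCC, were present in 5 of the 6 members' windows, and 32.7% of the 32851 promoters in the table held one. Adcy1 had 3 of them, Adcy5 had 4 and Adcy2 had 2. GC content was 71.2% for Adcy1, 78.0% for Adcy5 and 73.2% for Adcy2, where the median over all promoters was 52.4%. Adcy7 was the exception, at a RefSeq start site 10589 bases inside the gene as the table bounds it, with no GC box, a GC content of 54.0% and 5 CpG dinucleotides, against 23 to 34 in the other 5 members. The full cAMP response element TGACGTCA was in none of the 6 windows and in 1.55% of all promoters. Its shorter core, TGACG or CGTCA, was in the windows of Adcy7 and Adcy9 and in 17.8% of all promoters. No TATAAA or TTTATA was found in the 6 windows, and 12.4% of all promoters held one. These matches describe letters in a window and say nothing of binding.

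The 8 genes spanned a 56.1-fold range in level per length. Levels between genes were compared as CPM per kilobase, using the length that the deposited table gives for each gene. Adcy1 was highest, with 86.6 ± 8.77 CPM per kilobase over all 8 mice (SD), followed by Adcy5 with 58.5 ± 13 and Adcy2 with 34.9 ± 2.47. Adcy9 had 13.7 ± 1.07, Adcy3 had 7.83 ± 0.617, Adcy6 had 7.10 ± 0.548 and Adcy8 had 3.87 ± 0.382. Adcy7, the isoform of immune cells, was lowest with 1.55 ± 0.231. Every neighbouring pair in this order differed over the 8 mice in log2 CPM per kilobase (2-sided exact sign-flip permutation test, adjusted p = 0.00911 for 6 pairs and 0.0234 for the pair of Adcy3 and Adcy6, over 7 pairs). The smallest unadjusted p that 8 mice allow in this test is 0.00781. The test measures the spread between mice and no error in the gene lengths or in counting. The pairs came from sorting the same values, so the test is not independent of the order. Adcy3 and Adcy6 were the only neighbours whose ranges overlapped, and Adcy3 was the higher in 7 of 8 mice, by 0.14 ± 0.12 on the log2 scale (SD). Adcy3 shares exon bases with a gene on the other strand, as given below, and the order does not allow for this.

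**Figure D1:**
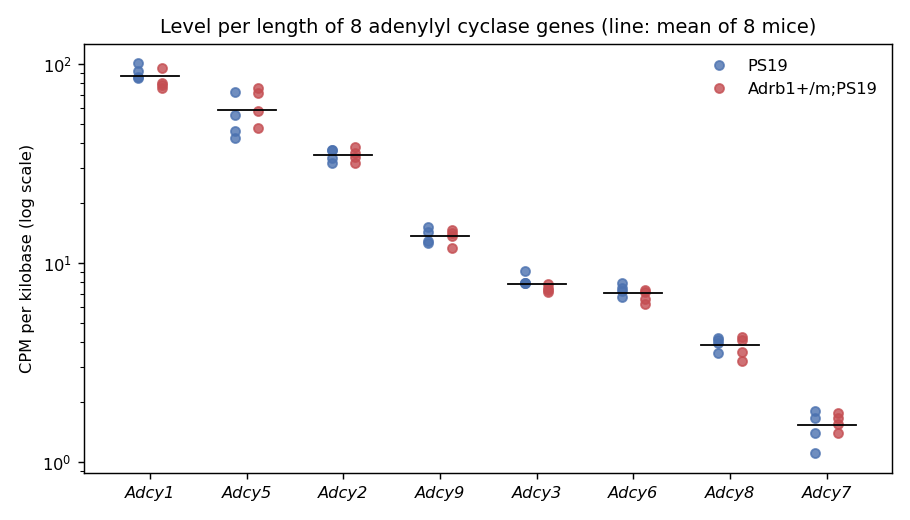
CPM per kilobase (vertical axis, log scale) of each adenylyl cyclase gene in 8 mice, with PS19 mice in blue, Adrb1+/m;PS19 mice in red and the mean of all mice as a line. Means run from 86.6 for Adcy1 to 1.55 for Adcy7, and Adcy3 and Adcy6 are the only neighbours that overlap.

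The summed level of the 8 genes was 214.4 ± 15.5 CPM per kilobase in PS19 mice and 213.6 ± 8.63 in Adrb1+/m;PS19 mice (SD, n = 4 each), with ranges of 200.1 to 229.1 and 202.2 to 223.0. Adcy1 made up between 35.1% and 46.0% of this sum and Adcy5 between 21.2% and 33.7%. Adcy1 exceeded Adcy5 in all 8 mice, but the ratio of their levels per length varied from 1.04 in Adrb1+/m;PS19 mouse m671 to 2.17 in PS19 mouse m677. The calcium-stimulated isoforms together held 48.2% ± 3.87 of the sum in PS19 mice and 43.9% ± 4.52 in Adrb1+/m;PS19 mice, and the calcium-inhibited isoforms 28.4% ± 4.51 and 32.7% ± 5.23 (SD, n = 4 each). These shares overlapped between the genotypes.

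Between the genotypes, 1 of the 8 genes, Adcy3, passed the study's threshold of an unadjusted p-value under 0.05, and it was lower in Adrb1+/m;PS19 mice. Of all genes tested, 2.8% passed, 1.37% with lower and 1.42% with higher expression. No member and no other gene passed after Benjamini-Hochberg adjustment over all genes tested by edgeR's quasi-likelihood test, where the adjusted p of each member was 0.9996. At an unadjusted p under 0.05, edgeR gave 481 and limma-voom 492 of 17195 genes. DESeq2 was run without the filter, on 33614 genes, and gave 555 or 1.65%. Neither limma-voom nor DESeq2 gave a gene with an adjusted p under 0.05. The log2 fold changes of the members lay between -0.14 and 0.22, with 3 above and 5 below 0 and a median of -0.04, beside a median of 0.00046 over all genes tested. Their median absolute log2 fold change was 0.096, beside 0.068 over all genes tested.

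**Figure D2:**
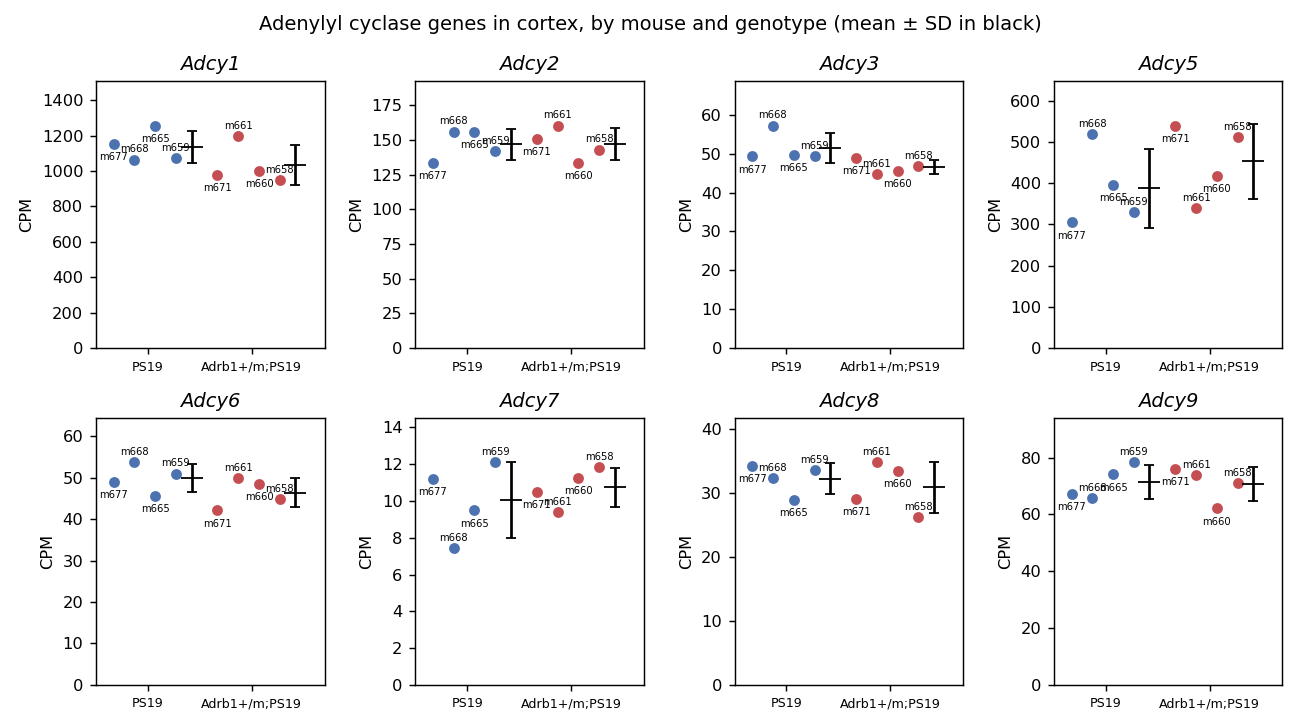
CPM of each adenylyl cyclase gene (vertical axis, starting at 0) in each mouse by genotype, with the mean and SD of 4 mice in black. Adcy3 is the only gene whose genotypes do not overlap, and Adcy5 has the widest relative spread between mice, from 305.0 to 540.1.

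Among the calcium-stimulated isoforms, Adcy3 (chr12:4133103-4213525, plus strand) had 49.3, 57.2, 49.7 and 49.4 CPM in PS19 mice m677, m668, m665 and m659. It had 48.9, 44.6, 45.6 and 46.8 CPM in Adrb1+/m;PS19 mice m671, m661, m660 and m658. Every Adrb1+/m;PS19 mouse lay below every PS19 mouse, a lack of overlap in this direction that 1% of all genes tested showed, and mouse m668 stood well above the other PS19 mice. The log2 fold change was -0.14 ± 0.07 (SE, unadjusted p = 0.0445; 2-sided exact permutation test of CPM, p = 0.0286, the smallest that 4 mice against 4 allow). Without mouse m668 it was -0.09 (unadjusted p = 0.168), and it also missed the threshold without m661 (unadjusted p = 0.107), m660 (unadjusted p = 0.094) or m658 (unadjusted p = 0.0662). On all genes with at least 1 count, edgeR (unadjusted p = 0.0560) and DESeq2's Wald test (unadjusted p = 0.0553) also put it above the threshold of 0.05. Adcy3 shares 1380 of its exon bases, 22.1%, with Cenpo, a centromere protein gene on the other strand. The strand setting of the counting is not given in the sources used here, so reads of both genes may not be separated. Cenpo itself had 51 to 108 counts per mouse against 805 to 1052 for Adcy3.

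Adcy1 (chr11:7063489-7178506, plus strand), the calcium-stimulated cyclase of cortical and hippocampal synapses, had 1152, 1064, 1257 and 1074 CPM in PS19 mice m677, m668, m665 and m659. It had 980, 1199, 1003 and 947 CPM in Adrb1+/m;PS19 mice m671, m661, m660 and m658. In 3 Adrb1+/m;PS19 mice it was below every PS19 mouse, and m661 was above all PS19 mice but m665. The log2 fold change was -0.14 ± 0.07 (SE), with a 95% interval of -0.30 to 0.02 (unadjusted p = 0.0795). It passed the unadjusted threshold without m661 (-0.22, unadjusted p = 0.00312) or without m668 (-0.17, unadjusted p = 0.0477), and without m665 it was -0.09 (unadjusted p = 0.248). Adcy8 (chr15:64697084-64922296, minus strand), the other calcium-stimulated isoform of synapses, had between 28.9 and 34.3 CPM in PS19 mice and between 26.2 and 34.8 in Adrb1+/m;PS19 mice. The PS19 values all lay within the range of the Adrb1+/m;PS19 values, with a log2 fold change of -0.06 and a 95% interval of -0.26 to 0.14.

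Of the isoforms stimulated by βγ subunits, Adcy2 (chr13:68620043-68999541, minus strand) had the same mean in both genotypes, 146.8 ± 10.9 CPM in PS19 and 146.8 ± 11.5 in Adrb1+/m;PS19 mice (SD, n = 4 each). Its log2 fold change was 0.000099 with a 95% interval of -0.15 to 0.15, an interval that leaves room for changes of either sign. Adcy7 (chr8:88272403-88329962, plus strand) had 11.2, 7.45, 9.49 and 12.1 CPM in PS19 mice m677, m668, m665 and m659 and 10.5, 9.39, 11.3 and 11.8 in Adrb1+/m;PS19 mice m671, m661, m660 and m658. The value of m668 was the lowest of all mice. With 108 to 209 counts per mouse it had the fewest counts of the members, with a log2 fold change of 0.09 and a 95% interval of -0.22 to 0.40.

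Of the calcium-inhibited isoforms, Adcy5 (chr16:35154877-35305738, plus strand) had 305.0, 519.2, 396.4 and 330.8 CPM in PS19 mice m677, m668, m665 and m659. It had 540.1, 340.6, 418.5 and 512.4 CPM in Adrb1+/m;PS19 mice m671, m661, m660 and m658. Mouse m668 was high among the PS19 mice and m661 low among the Adrb1+/m;PS19 mice, and the genotypes overlapped. The log2 fold change of Adcy5 was 0.22 ± 0.16 (SE), the highest of the members, with a 95% interval of -0.11 to 0.56 (unadjusted p = 0.178). It passed the unadjusted threshold without m668 (0.40, unadjusted p = 0.0114) and without m661 (0.34, unadjusted p = 0.0371). It was 0.13 without m677 (unadjusted p = 0.435) and 0.13 without m671 (unadjusted p = 0.456). It also passed with edgeR on all genes with at least 1 count, where the log2 fold change was 0.23 (unadjusted p = 9.33e-05, adjusted p = 0.049). In that fit 66 genes passed after adjustment. Adcy6 (chr15:98589973-98610076, minus strand), the close relative of Adcy5 found in many cell types, had between 45.7 and 53.8 CPM in PS19 mice and between 42.2 and 49.9 in Adrb1+/m;PS19 mice. Its log2 fold change was -0.10 with a 95% interval of -0.26 to 0.05, and -0.06 without m668 or without m671. Adcy9 (chr16:4287529-4420498, minus strand) had 71.4 ± 5.89 and 70.7 ± 6.09 CPM (SD, n = 4 each), a log2 fold change of -0.01 with a 95% interval of -0.17 to 0.15.

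**Figure D3:**
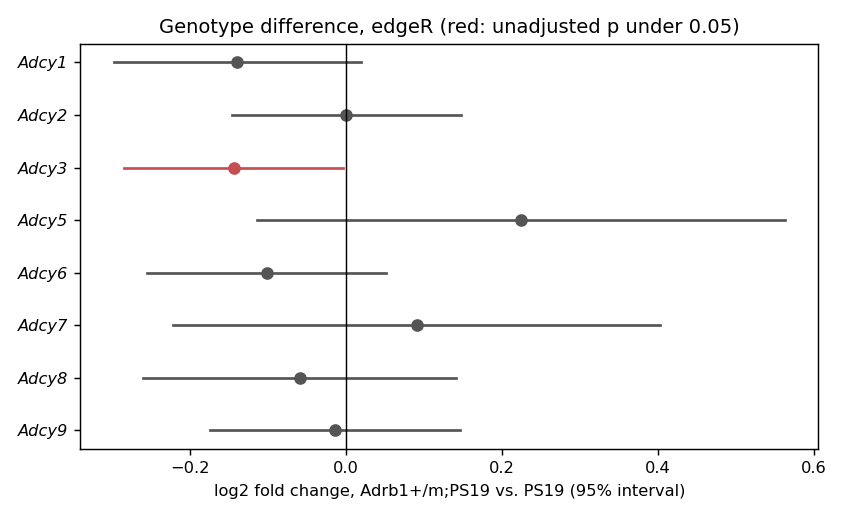
Log2 fold change in Adrb1+/m;PS19 vs. PS19 mice (horizontal axis) with its 95% interval from edgeR for each adenylyl cyclase gene, in red where the unadjusted p is under 0.05. Adcy3 is the only red gene, at -0.14, and the interval of Adcy5 is the widest, from -0.11 to 0.56.

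Adcy5 varied more between mice than most genes of similar abundance. The SD of its log2 CPM over the 8 mice was 0.32, and 98.2% of the 834 genes within 2-fold of its mean CPM had a lower SD. For Adcy1 the SD was 0.14, higher than in 93.4% of the 183 genes within 2-fold of its mean. The other 6 members lay above 62.4% to 77.1% of the genes of similar abundance.

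The level of Adcy5 went with the markers of striatal projection neurons, which are not cortical cells. Adcy5 is itself known as the main cyclase of these neurons, where it is driven by dopamine and adenosine receptors through the G protein subunits encoded by Gnal and Gng7. The 12 striatal markers had a summed level of 1025 to 2051 CPM in PS19 mice and 1069 to 2301 CPM in Adrb1+/m;PS19 mice, and none was at 0 in every mouse. The most abundant were Pde10a with a mean of 368.3 CPM, Ppp1r1b with 311.1 and Penk with 252.1. Over the 8 mice, the log2 CPM of Adcy5 and the striatal marker score had a Pearson's r of 0.991 and a Spearman's rho of 1 (exact permutation tests, p = 0.000298 and 4.96e-05, the latter the smallest possible; adjusted p = 0.0238 and 0.00397 over 80 relations of 8 genes and 10 marker lists). A score is the mean over a list of log2 CPM after subtraction of each gene's mean. All 80 relations were added after the data were examined, so their p-values are not an independent test. Without the 2 mice farthest from the median score, m677 and m671, r was 0.993, and after subtraction of genotype means it was 0.990. All 12 striatal markers had a log2 fold change above 0, the same sign as for Adcy5, with a median of 0.33. Of all genes tested, 49.8% had a log2 fold change below 0. The 12 markers largely rose and fell together over the mice, each highest in m671, so their signs are not 12 independent results. Tac1 alone passed the unadjusted threshold, beside 1.42% of all genes tested with higher expression. The part of these markers in the genotype difference of Adcy5 was not tested. In bulk tissue, the number of cells of a type, including any from outside the cortex, and the RNA per cell cannot be told apart. How much striatum each sample held was not measured.

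**Figure D4:**
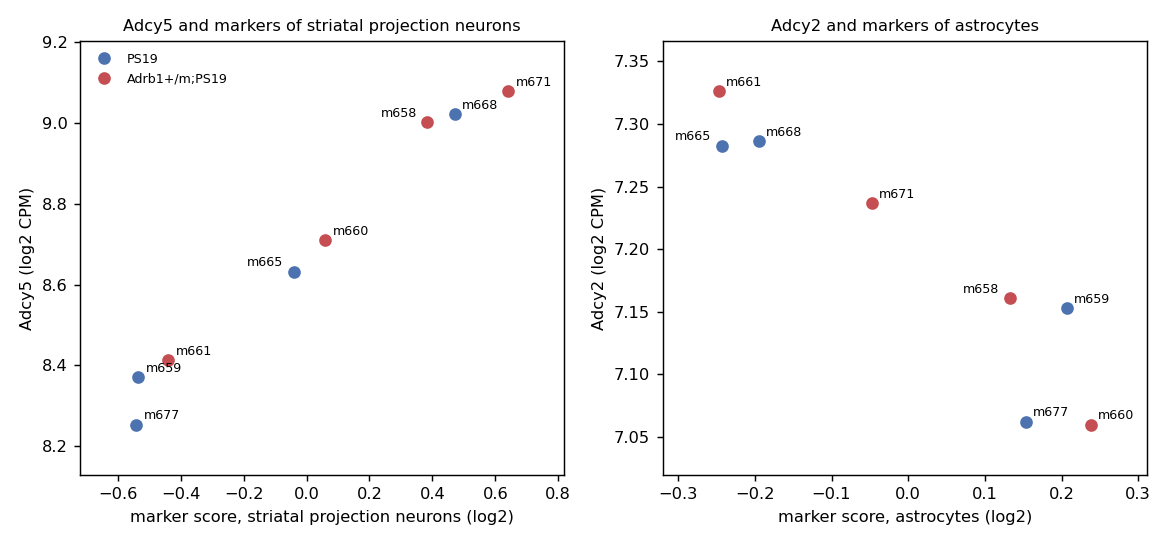
Log2 CPM of Adcy5 against the striatal marker score (left) and of Adcy2 against the astrocyte marker score (right), with 1 point per mouse, PS19 in blue and Adrb1+/m;PS19 in red. Adcy5 rises with the striatal score in the same order in all 8 mice (rho of 1), and Adcy2 is lower, between 133.3 and 143.0 CPM, in the 4 mice with the highest astrocyte scores.

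The genes most like each member were taken as the 3 with the highest Pearson's r of log2 CPM over the 8 mice, among all genes tested that have an assigned symbol. They are the maxima over all those genes, measured in the same libraries, and are given as a description. For Adcy5 they were Gng7, a G protein γ subunit of the striatum (r = 0.994), Pde10a, a striatal phosphodiesterase (r = 0.984), and Adora2a, an adenosine receptor of the striatum (r = 0.983). Gng7 had 161.4, 301.0, 230.1 and 179.7 CPM in PS19 mice m677, m668, m665 and m659 and 316.1, 199.0, 238.1 and 296.3 in Adrb1+/m;PS19 mice m671, m661, m660 and m658. The 8 mice had the same order for Gng7 as for Adcy5, and the log2 fold change of Gng7 was 0.27 ± 0.17 (SE).

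For Adcy1 the most similar genes were Ldb2, a transcriptional cofactor (r = 0.977), the metal transporter gene Slc11a2 (r = 0.955) and Dkk3, a secreted Dickkopf protein (r = 0.953). For Adcy2 they were Fbxo45, Zfp30 and Nfe2l1, with r between 0.957 and 0.961. For Adcy3 they were Zzef1 (r = 0.973), Sgsm3 (r = 0.964) and Mynn (r = 0.942). For Adcy6 they were Tdrd1, Map2k6 and Fdxr, with r between 0.935 and 0.960, of which Tdrd1 had a mean of only 0.77 CPM. For Adcy7 they were Ppil4 (r = 0.970), Traf3ip3 (r = 0.950) and Akna (r = 0.948). For Adcy8 they were Nckap5 (r = 0.944), Mir1898 (ENSMUSG00000084592, r = 0.943) and Rbms2 (r = 0.929), and for Adcy9 Pcmt1 (r = 0.969), Iqsec1 (r = 0.953) and Tagap1 (r = 0.934). No gene was shared between these lists of 3.

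Adcy2 and Adcy7, the isoforms stimulated by βγ subunits, differed in opposite directions between mice with more and with less astrocyte and microglial marker RNA. Adcy2 had 133.5, 142.2, 133.3 and 143.0 CPM in m677, m659, m660 and m658, the 4 mice in which the 8 astrocyte markers summed to between 5928 and 6244 CPM. In the other mice, m668, m665, m671 and m661, it had 156.0, 155.6, 150.7 and 160.3 CPM, with astrocyte sums between 5133 and 5303. The astrocyte marker Gfap had 748.4 to 837.9 CPM in the first 4 mice and 181.7 to 353.6 CPM in the other mice. Aqp4 and Gja1 did not overlap between these sets either, while Slc1a2, Slc1a3, Aldoc, Aldh1l1 and S100b did. Each set of 4 held mice of both genotypes, and the values of Adcy2 did not overlap between the sets. Adcy7 had 11.2, 12.1, 11.3 and 11.8 CPM in the first set and 7.45, 9.49, 10.5 and 9.39 in the second, again without overlap. The 10 microglial markers summed to between 654.8 and 755.0 CPM in the first set and between 410.1 and 542.0 in the second. Sums of the oligodendrocyte markers overlapped, at 5291 to 6640 CPM in the first set and 5052 to 6802 in the second. The sets were not set apart by glial markers alone. The score of the thalamus markers was 0.018 to 0.253 in the first set and -0.229 to -0.025 in the second, though their summed CPM overlapped. Over all 8 mice this score had an r of -0.758 with Adcy2 and 0.764 with Adcy7. As the sets were seen in the data, the difference between them was not tested. The share of all genes tested that did not overlap between these sets was not counted. How unusual the lack of overlap of Adcy2 and Adcy7 is among all genes is therefore not known. Over all 8 mice, Adcy2 and the astrocyte score had an r of -0.935 and a rho of -0.952 (exact permutation tests, p = 0.00203 and 0.00114; adjusted p = 0.0813 and 0.0456 over the 80 relations). Without m665 and m661 r was -0.894, and after subtraction of genotype means it was -0.939. These coefficients span both sets of mice, and a set of 4 is too small for one of its own.

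Between the genotypes, 0 of 8 astrocyte and 0 of 10 microglial markers passed the unadjusted threshold, beside 2.8% of all genes tested. At that share, 0 calls in lists this short do not show that the genotypes were alike. None of these markers was at 0 in every mouse. The microglial sums were 432.2 to 755.0 CPM in PS19 and 410.1 to 732.0 CPM in Adrb1+/m;PS19 mice.

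Of the 80 relations with marker scores, 1 passed at an adjusted p under 0.05 by r and 2 by rho. That of Adcy5 with the striatal markers passed by both, and that of Adcy2 with the astrocyte markers by rho alone. No relation of Adcy7 passed. As the relations were added after the data were examined, these counts are descriptions. Several that failed had a larger r in size than the relation of Adcy1 given next. These were Adcy2 with microglial (r = -0.877) and thalamus markers (r = -0.758), and Adcy7 with astrocyte (r = 0.819) and thalamus markers (r = 0.764). Adcy6 with interneuron markers (r = -0.762) was another. Adcy1 went with the cortical excitatory neuron markers with an r of 0.738 and a rho of 0.786 (exact permutation tests, p = 0.0321 and 0.0279; adjusted p = 0.329 and 0.279). Without m665 and m658, the 2 mice farthest from the median score, r was 0.307, and after subtraction of genotype means it was 0.611. Leaving out such mice narrows the range of scores, so the lower r does not tell how far the relation rests on them. The median log2 fold change of these 10 markers was -0.14, and 3 of 10, Slc17a7, Neurod6 and Tbr1, passed the unadjusted threshold with lower expression, beside 1.37% of all genes tested. The log2 fold change was above 0 for 2 of the 10, Rorb and Bcl11b. The summed levels of the 10 markers were 1786 to 2067 CPM in PS19 and 1678 to 1863 CPM in Adrb1+/m;PS19 mice. This is the sign of the differences of Adcy1 and Adcy3, and the part of these markers in those differences was not tested. For Adcy3, r with the excitatory neuron score was 0.349 and rho was 0.667. After subtraction of genotype means that r was -0.205. With the striatal score Adcy3 had an r of 0.330 and a rho of 0.048, and an r of 0.878 after the same subtraction. Its r with Adcy5 was then 0.885. Without m677 and m671, and without the subtraction, r was 0.470 with the striatal score and 0.465 with Adcy5. Mouse m668, well above the other PS19 mice for Adcy3, was also the highest PS19 mouse for Adcy5 and the striatal score. No r of Adcy3 with either was computed without it. The log2 fold changes of Adcy5 and the striatal markers had the opposite sign to that of Adcy3.

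Between the members themselves no relation passed after adjustment over the 28 pairs, where the smallest adjusted p for r was 0.577. The strongest correlations were between Adcy6 and Adcy8 (r = 0.721, rho = 0.619; exact permutation tests, p = 0.0440 and 0.115; r = 0.698 without m665 and m658) and between Adcy2 and Adcy7 (r = -0.718, rho = -0.786; exact permutation tests, p = 0.0386 and 0.0279; r = -0.661 without m668 and m661). Adcy1 and Adcy5, the 2 most abundant isoforms, had an r of -0.657 and a rho of -0.667 (exact permutation tests, p = 0.0851 and 0.0831; r = -0.560 without m677 and m671).

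The rest of the cAMP pathway was summarised with 6 lists of 89 genes in all, of which 88 were tested. At the unadjusted threshold 4 of 88 had higher expression in Adrb1+/m;PS19 mice and 0 had lower expression, beside 1.42% and 1.37% of all genes tested. None passed after adjustment by edgeR's quasi-likelihood test. The 4 genes were Gpr12, Gnal, Pde3a and Pde7b. Single mice decided this count, which was 0 without m659 or m658, 7 without m661 and 11 without m668. In either direction, the share of all genes tested that passed was 2.71% without m659 and 2.6% without m658. It was 3.86% without m661 and 3.44% without m668.

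Upstream of the cyclases, 1 of 19 receptors coupled to stimulatory G proteins passed the threshold. This was Gpr12, an orphan receptor that raises cAMP, at 17.8 ± 1.72 CPM in PS19 and 20.4 ± 1.31 CPM in Adrb1+/m;PS19 mice (SD, n = 4 each) and a log2 fold change of 0.20 ± 0.09 (SE). The median log2 fold change of the receptor list was 0.09. Of 20 G protein subunits 1 passed. This was Gnal, the stimulatory α subunit of striatum and olfactory epithelium, which had 207.1, 320.1, 252.0 and 220.8 CPM in PS19 mice m677, m668, m665 and m659 and 317.0, 257.6, 283.3 and 339.3 in Adrb1+/m;PS19 mice m671, m661, m660 and m658. Mouse m668 lay among the Adrb1+/m;PS19 mice, and the log2 fold change was 0.26 (SE 0.12, unadjusted p = 0.0455). Like Adcy5, Gnal went with the striatal marker score, with an r of 0.922 over the 8 mice as a description. The other cyclases, Adcy4 and the soluble Adcy10, were low, at between 2.91 and 5.90 CPM and between 0.90 and 4.55 CPM. The log2 fold change of Adcy4 was -0.44, with a 95% interval of -0.92 to 0.03, and that of Adcy10 was -0.12, with an interval of -1.19 to 0.94.

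Of the 15 regulators of cyclases, which include calmodulin genes, anchoring proteins and calmodulin-dependent kinases, none passed, and the median log2 fold change was 0.0037. Of the 16 phosphodiesterases 2 passed with higher expression. Pde7b, a cAMP-specific phosphodiesterase abundant in striatum, ranged from 58.5 to 82.9 CPM in PS19 and from 71.5 to 93.1 CPM in Adrb1+/m;PS19 mice, with a log2 fold change of 0.23 ± 0.10 (SE) and an r of 0.931 with the striatal score. Pde3a, an enzyme that hydrolyses cAMP and is inhibited by cGMP, had 5.04 ± 0.348 and 6.77 ± 1.58 CPM (SD, n = 4 each), and its log2 fold change was 0.42 ± 0.17 (SE). Its genotypes did not overlap, a lack of overlap in this direction that 1.02% of all genes tested showed, and no member did. Pde4a, another cAMP phosphodiesterase, did not overlap in the other direction, with a log2 fold change of -0.10 (unadjusted p = 0.0944). An r of 0.458 with the striatal score was lower than for Pde7b, and Gpr12 had 0.298. Of the 16 effectors, among them the subunits of protein kinase A, none passed, and the median log2 fold change was -0.05. The striatal list shares Drd1, Adora2a, Gpr6 and Pde10a with the pathway lists.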

How the data were processed

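Mouse cortical RNA was sequenced with paired-end reads, and the authors aligned clean reads to GRCm38/mm10 with Hisat2 2.0.5, counted them per Ensembl gene with featureCounts 1.5.0-p3 and deposited raw counts with 1 column per mouse. Whether counting used strand or multiply mapped reads is not given in the sources used here. The deposited table also lists a length in bases per gene.

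From the counts, edgeR 4.0.16 (filterByExpr, TMM, glmQLFit and glmQLFTest, 2-sided, no covariates) compared the genotypes in R 4.3.3, and p-values of all 17195 genes tested were adjusted after Benjamini and Hochberg. A standard error is the size of the log2 fold change divided by the square root of F, and 95% intervals use the test's degrees of freedom. Log2 CPM used a prior count of 2. DESeq2 1.42.0 (on genes with at least 1 count), limma 3.58.1 (voom), other filters and size factors, and each mouse left out were alternatives. The processing was tested on simulated data. Exon overlap used GENCODE M21, and promoters came from RefSeq (GRCm38.p6). Mouse names are those of the labels. The labels do not tie mice to litters, so p-values measure the spread between these mice.

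All 8 members were named. Other genes were named by rule: the 3 with the highest r to each member, and up to 4 per pathway list with the smallest p past the threshold. Cenpo, Gng7 beyond its r, Tac1, Pde4a and the excitatory neuron markers were named after their values were seen. The members and lists were chosen with earlier results of these data known, and the relations with marker scores were added after the data were examined.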

Additional observations from a re-analysis of the deposited data

Results flagged for a closer look

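In the PS19 mice, the Adcy3 value of mouse m668 (57.2 CPM) stood apart from those of the other mice (49.3 to 49.7 CPM), with a gap to its nearest neighbour of 0.955 of the group's range. This was 1 of 16 groups of 4 mice examined, and chance gives about 1 in 20. The same mouse had the lowest total count, 14653222. It also had the highest choroid plexus marker sum of the PS19 mice, 362.5 CPM against 18.4 to 144.0 in the others. Its striatal marker sum was 2051 CPM, against 1025 to 1453 in the other PS19 mice. Whether any of these bears on its Adcy3 value was not tested.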

How the results depend on the processing

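No paired analysis was possible because no label ties mice of the genotypes together. The order of the 8 genes by level and its 7 passing pairs held with DESeq2 size factors, a prior count of 0.5 and every left-out mouse. The number of members past the unadjusted threshold was 0 higher and 1 lower. DESeq2 without a filter, a change of both tool and filter, gave 0 lower, edgeR without a filter 1 higher, and the fit without mice m668 and m658, chosen after seeing the data for their choroid plexus marker RNA, 1 higher and 0 lower. With 1 mouse left out it was 0 to 1 higher and 0 to 1 lower, and the median log2 fold change of the members was -0.0847 to -0.0026. The 1 higher was Adcy5 in each case, and without a filter, m668 or m661 the 1 lower was Adcy1 in place of Adcy3. edgeR called 481 genes with its filter and 1366 of 33614 without. The 4 higher and 0 lower pathway genes became 2 higher and 0 lower with DESeq2 without a filter, 10 higher and 1 lower in edgeR without a filter, 6 higher and 1 lower without m668 and m658, and 0 to 11 higher and 0 to 3 lower with 1 mouse left out. The 11 came without m668, and 0 without m659 or m658. Of all genes tested, 2.47% to 3.86% passed in either direction with 1 mouse left out. The share was 1.65% with DESeq2 without a filter, 4.06% in edgeR without a filter and 2.71% without m668 and m658. Signs changed for members near 0. Adcy2 had a log2 fold change of -0.0012 with DESeq2 and -0.0013 with DESeq2 size factors, and Adcy7 -0.0755 and Adcy8 0.0103 without m668 and m658. With 1 mouse left out, Adcy2 ran from -0.0456 to 0.0441, Adcy7 from -0.0237 to 0.189, Adcy8 from -0.124 to 0.0111 and Adcy9 from -0.0510 to 0.0436. Their causes were not tested. Depth limits Adcy7 most, with 108 to 209 counts.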
